A study of Mus musculus with 180 samples.

Results

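The 3 samples treated with BGT226, a compound that the study writes BGT-226, were compared with the 6 samples that received only the solvent DMSO. These 9 samples are part of 180 RNA-seq samples of mouse bone marrow-derived macrophages (BMDMs), and their groups were taken from their labels. Of 45070 genes in the table, 12714 reached an average of 10 across the 180 samples and were tested. BMDMs of every group came from wild-type male C57/BL6 mice aged 6 to 8 weeks, were pre-treated for 1 h with a clinical kinase inhibitor (CKI) or DMSO, and were then given LPS at 10 ng/ml for 2 h. LPS, a component of the bacterial outer membrane, stimulates macrophages through the receptor TLR4. No group in the comparison lacked LPS, so every value below is a level under LPS. The DMSO samples carry labels of 2 sets of 3, and the labels do not tie either set to a CKI, so both sets served as the reference. Each CKI was used at a single concentration, set by its affinity for a chosen kinase in lysates, which for BGT226 was the splicing kinase CLK1. The samples treated with Omipalisib, another inhibitor of PI3K and mTOR, and with AZD2014, an inhibitor of mTOR, 3 of each, were used as direct comparisons, at concentrations that differed from that of BGT226.

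BGT226 is known as a dual inhibitor of PI3K and mTOR. PI3K makes a membrane lipid that activates the kinase AKT, and AKT holds FOXO transcription factors out of the nucleus, so FOXO target genes such as Irs2 are usually low while the pathway is active. The mTOR complex mTORC1 promotes protein and lipid synthesis, in part through SREBP and ATF4, and keeps the lysosomal regulator TFEB in the cytosol. In macrophages PI3K and mTOR also shape the balance of cytokines made after LPS. CLK kinases phosphorylate SR proteins, which guide the splicing of introns, and transcripts with slowly removed ("detained") introns are known to respond to CLK activity.

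The normalized values used here are exonic read counts that the authors scaled on invariant genes and rounded. They are not corrected for gene length, so levels are compared between samples and not between genes. Their totals were 12051368, 10929646 and 10932955 in BGT226 replicates 1, 2 and 3 and between 9481416 and 11094387 in the DMSO samples. Mitochondrially encoded transcripts made up 2.11%, 1.70% and 0.884% of the total in the BGT226 samples and 0.759% to 1.94% in the DMSO samples, and the part of this share in the results was tested only as a covariate. Macrophage markers were high in every sample, with a summed value of 119536 to 198293 under BGT226 and 103314 to 218588 under DMSO. Of the 10 macrophage markers, Mertk (log2 fold change 1.22) and Csf1r (0.16) were higher under BGT226, Spi1 (-0.48) was lower and 7 did not pass the test. These shares of 20% higher and 10% lower were close to those of all genes tested, 24.1% and 6.32%. Csf1r lost its call and turned to -0.04 (adjusted p = 0.742) under the further scaling described below, and lost it without BGT226 replicate 1 (0.16, adjusted p = 0.0609) or replicate 3 (0.14, adjusted p = 0.086). Spi1 lost its call without BGT226 replicate 1 (-0.33, adjusted p = 0.297) or replicate 2 (-0.46, adjusted p = 0.11) and without 3 of the DMSO samples.

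BGT226 was followed by many more rises than falls. Of 12714 genes, 3863 differed (30.4%), of which 3060 were higher (24.1%) and 803 were lower (6.32%) than under DMSO at an adjusted p-value under 0.05 (limma, Benjamini-Hochberg). Among the changed genes, 1227 rose and 123 fell by at least 1 on the log2 scale, and 196 rose and 11 fell by at least 2. The median log2 fold change of all genes tested was 0.21, with quartiles of -0.09 and 0.56. This excess of rises depended on the scaling. When the samples were scaled once more by the median of their ratios over all genes, the median moved by 0.2 to 0.01, and 2000 genes were higher (15.7%) and 1948 lower (15.3%), so that the share of rises among called genes went from 79.2% to 50.7%. These shares of 15.7% and 15.3% are the background for the list counts given below under this scaling. All 803 falls and 2000 of the 3060 rises were called the same way in both scalings, and 0 genes were called in opposite directions. The 2 DMSO sets differed in 0 genes by the same limma test, with 310 genes at an unadjusted p under 0.05. Samples of the same number in the 2 sets shared part of their deviations (correlations of 0.514, 0.237 and 0.322), and this test did not use the numbers. Its 0 calls therefore do not show that the sets are alike. The 3 BGT226 samples lay above all 6 DMSO samples in 2476 genes (19.5% of all tested) and below them in 547 (4.30%). Of these, 2262 were among the 3060 called higher and 455 among the 803 called lower. Calls and separation come from the same 9 samples, so the one gives no separate support to the other.

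**Figure D1:**
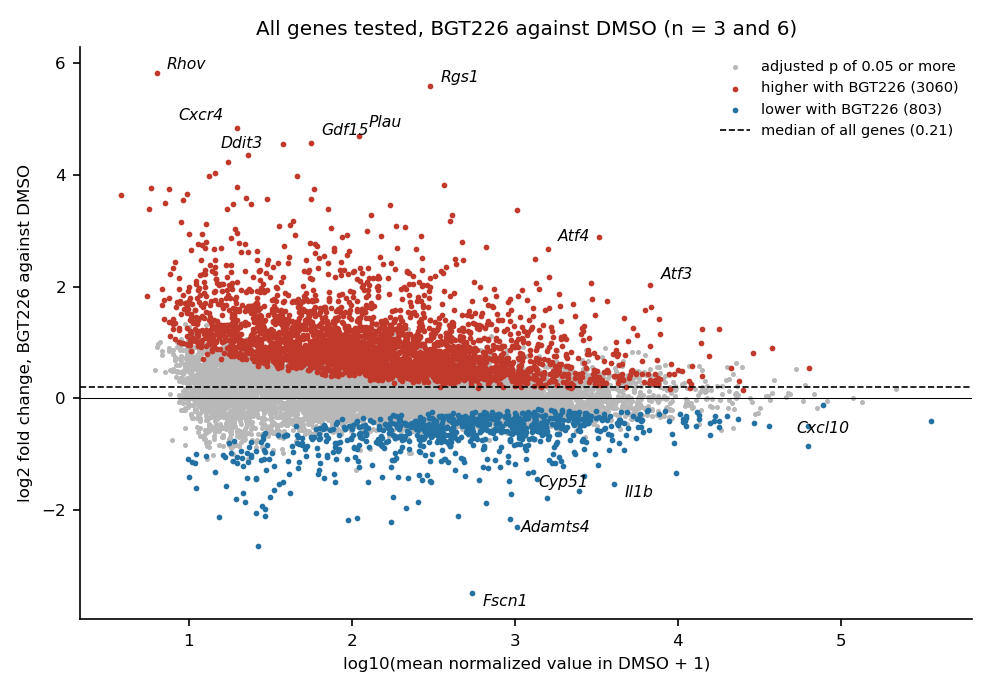
Each point is 1 of the 12714 genes tested, with the log10 of its mean normalized value under DMSO (plus 1) on the x axis and its log2 fold change under BGT226 against DMSO on the y axis. The 3060 genes that were higher outnumber the 803 that were lower, and the largest rises, such as Rgs1 at 5.59, exceed the largest falls, such as Fscn1 at -3.49.

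The largest rises were in a regulator of G-protein signaling, a small GTPase, a chemokine receptor and stress-induced genes. The largest changes were chosen only among genes whose groups did not overlap, so their separation was a condition of the choice. Rgs1 (chr1:144244669-144249104, mm10), which shortens signals from chemokine receptors, had normalized values of 18305, 15169 and 8511 under BGT226 and a range of 147 to 561 under DMSO (median 294.5). All 3 BGT226 values lay far above the DMSO range, and the log2 fold change was 5.59 ± 0.43 (SE, adjusted p = 2.47e-22). Rhov, a small GTPase gene, had 356, 483 and 194 against 2 to 10 (median 5), a log2 fold change of 5.83 ± 0.60. Cxcr4, the receptor of the chemokine CXCL12, had 489, 384 and 221 against 2 to 55 (median 10), a log2 fold change of 4.84 ± 0.53. In both genes the groups did not overlap, and no DMSO sample was above 55. Plau, the urokinase that activates plasminogen, had 3197, 3227 and 2155 against 86 to 152 (median 102.5), a rise of 4.70 ± 0.30. Gdf15, a secreted stress hormone, had 1352, 1801 and 860 against 41 to 88 (median 47), a rise of 4.57 ± 0.45. The groups were separate for both, with adjusted p-values of 5.34e-29 and 5.16e-16. Gadd45g, a growth arrest gene, rose by 3.83 ± 0.29, Osgin1, an oxidative stress response gene, by 4.36 ± 0.34, the sulfate transporter gene Slc26a11 by 3.99 ± 0.31 and the serotonin receptor gene Htr2a by 3.98 ± 0.42.

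Falls were smaller, and their largest members encode cell-shape, signaling and secreted proteins. Fscn1, which bundles actin into filopodia, had 26, 31 and 95 under BGT226 and 279 to 1109 under DMSO (median 406), a log2 fold change of -3.49 ± 0.41 (adjusted p = 4.02e-12). The highest BGT226 sample was below the lowest DMSO sample. Lipg, a lipase of lipoprotein phospholipids, had 201, 123 and 305 against 672 to 1790 (median 899.5), a log2 fold change of -2.30 ± 0.38. Errfi1, a feedback inhibitor of the EGF receptor, had 458, 771 and 265 against 1338 to 1699 (median 1622), a change of -1.79 ± 0.27. These groups did not overlap either, which was again a condition for choosing the largest changes. Sema4c, a membrane semaphorin, changed by -2.22 ± 0.29, Adamts4, a matrix protease, by -2.16 ± 0.35, the G-protein regulator Rgs16 by -2.18 ± 0.44, the metalloreductase Steap4 by -1.76 ± 0.53, the membrane chemokine Cx3cl1 by -1.88 ± 0.35 and the chemokine Ccl24 by -2.15 ± 0.43. Of these, Steap4 lost its call without BGT226 replicate 2 (-1.32, adjusted p = 0.104).

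Genes encoding the pathway that BGT226 is designed against were mostly higher or not changed. Of 47 tested components of PI3K, AKT and mTOR signaling, 20 were higher (background 24.1%), 2 were lower (6.32%) and 25 did not pass the test, with a median log2 fold change of 0.28 beside 0.21 over all genes. With the further scaling the counts were 16 and 6, beside 15.7% and 15.3% of all genes. Irs2, the adaptor that couples insulin and IL-4 receptors to PI3K, had 271, 351 and 151 against 19 to 52 under DMSO (median 35), a rise of 2.74 ± 0.38 (adjusted p = 2.35e-09). Every BGT226 value exceeded every DMSO value, with the lowest in replicate 3. Rptor, the scaffold of mTORC1, had 673, 729 and 709 against 192 to 314 (median 266.5), and rose by 1.42 ± 0.17. Mlst8, a subunit of both mTOR complexes, had 293, 243 and 260 against 78 to 91 (median 84), and rose by 1.64 ± 0.20, and 22.5% of its exon bases overlap the gene Bricd5 on the opposite strand, from which the unstranded library cannot separate it. Phlpp1, a phosphatase that inactivates AKT, rose by 1.74 ± 0.26. Pik3ip1, an inhibitor of PI3K, had 60, 58 and 73 against 23 to 49 (median 37), and its call (0.83 ± 0.33, adjusted p = 0.0416) was lost under the further scaling (0.64, adjusted p = 0.132) and when any BGT226 sample was left out (adjusted p = 0.0707 to 0.139). The members that fell were Ddit4, an inhibitor of mTORC1 with at most 14 in any of the 9 samples and no call without BGT226 replicate 3 (-0.70, adjusted p = 0.419), and Eif4ebp2 (-0.65), a translation repressor named here after its value was seen.

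Most of the FOXO target genes were higher. Of 25 tested, 17 were higher (68%, beside 24.1% of all genes), 7 did not pass the test and 1 was lower, Sod2 (-0.32), with a median log2 fold change of 0.87 beside 0.21. The further scaling left 12 higher (15.7% of all genes) and 1 lower, with a median of 0.67 beside 0.01. Tsc22d3, a glucocorticoid- and FOXO-induced leucine zipper gene, had 779, 605 and 498 against 63 to 96 under DMSO (median 71.5), a rise of 3.06 ± 0.21 (adjusted p = 9.76e-26). Hbp1, a repressor of proliferation genes, had 3268, 2496 and 2020 against 252 to 767 (median 452), a rise of 2.49 ± 0.32. Both groups were clear of each other in both genes, with BGT226 replicate 3 the lowest of the treated samples. Gadd45a, a growth arrest gene, rose by 2.41 ± 0.26, and Il7r, which encodes the IL-7 receptor, by 1.88 ± 0.30. Catalase, encoded by Cat, had 1409, 1205 and 1278 against 1008 to 1506 (median 1331), and its groups overlapped (-0.01 ± 0.10, adjusted p = 0.959). For Hbp1, 24.6% of the exon bases overlap Cog5 on the opposite strand.

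The 250 bases before the RefSeq start sites were searched on both strands for GTAAACA, the core letters of the FOXO binding motif (reverse TGTTTAC). The motif occurred in 2.76% of 9131 tested genes with a promoter in the table (RefSeq, GRCm38.p6), and in 3 of 22 FOXO target genes (13.6%), Bcl2l11, Hbp1 and Txnip, all of which were called higher, Bcl2l11 (0.33) without the further scaling but not with it (0.13, adjusted p = 0.317). Of the 19 without it, 12 rose and 1 fell. Txnip, an inhibitor of glucose uptake that was named after its values were seen, had 2186, 1704 and 1504 against 352 to 749 (median 545.5), a rise of 1.75 ± 0.22. The promoters of Hbp1 (chr12:31950246-31950495, minus strand) and Txnip (chr3:96557707-96557956, plus strand) are shown with the motif in capitals, to let the match be seen in its surroundings.
Hbp1: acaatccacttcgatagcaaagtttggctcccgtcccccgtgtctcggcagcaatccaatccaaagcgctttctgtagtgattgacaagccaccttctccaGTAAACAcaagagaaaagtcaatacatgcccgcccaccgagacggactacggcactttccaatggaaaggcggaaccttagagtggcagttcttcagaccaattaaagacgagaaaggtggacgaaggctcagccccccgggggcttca
Txnip: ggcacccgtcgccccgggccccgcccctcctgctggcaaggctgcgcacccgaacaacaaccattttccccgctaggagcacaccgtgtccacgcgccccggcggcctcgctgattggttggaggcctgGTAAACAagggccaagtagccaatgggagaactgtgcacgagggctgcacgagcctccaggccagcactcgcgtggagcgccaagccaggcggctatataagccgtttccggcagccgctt

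Of 53 tested lysosome and autophagy genes, 23 were higher (43.4%, beside 24.1% of all genes), 2 were lower (Tfe3 at -0.38 and Ctsd at -0.12, named after their values were seen) and 28 did not pass the test, with a median of 0.31 beside 0.21. Under the further scaling 13 were higher (15.7% of all genes) and 4 lower, with a median of 0.11 beside 0.01. Flcn, Fnip1 and Fnip2 encode folliculin and its partners, which signal amino acids to the Rag GTPases and mTORC1. Fnip2 had 3300, 3485 and 2192 against 179 to 797 under DMSO (median 441.5), a rise of 2.81 ± 0.35. Flcn had 440, 594 and 514 against 76 to 163 (median 121.5), a rise of 2.09 ± 0.25, and Fnip1 rose by 2.04 ± 0.30. No treated sample fell within the DMSO range of these genes. Gabarapl1, an ATG8 protein of the autophagosome, had 3047, 2546 and 2546 against 573 to 932 (median 738), a rise of 1.84 ± 0.14. Ulk1, the kinase that starts autophagy, rose by 1.55 ± 0.22. Highly expressed lysosomal genes moved little. The protease gene Ctsb had 125838, 116683 and 117971 against 110189 to 128021 (median 118858), 0.01 ± 0.07 (adjusted p = 0.908), and the autophagy receptor gene Sqstm1 had 60838, 63592 and 93107 against 48792 to 75663 (median 60234), 0.24 ± 0.13 (adjusted p = 0.153).

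The letters TCACGTGA, an E-box of the kind bound by TFEB and its relatives, occurred before the start site of 1.88% of all these genes and of 6 of 41 lysosome and autophagy genes (14.6%), of which 4 rose and 1 fell. Of the 35 genes without it, 16 rose and 1 fell. Gla, which encodes the lysosomal alpha-galactosidase and was named after its values were seen, has 2 copies. Its values were 2186, 1582 and 1326 against 437 to 1003 under DMSO (median 629), a rise of 1.34 ± 0.28. The promoter (chrX:134601006-134601255, minus strand) is shown with both copies in capitals.
Gla: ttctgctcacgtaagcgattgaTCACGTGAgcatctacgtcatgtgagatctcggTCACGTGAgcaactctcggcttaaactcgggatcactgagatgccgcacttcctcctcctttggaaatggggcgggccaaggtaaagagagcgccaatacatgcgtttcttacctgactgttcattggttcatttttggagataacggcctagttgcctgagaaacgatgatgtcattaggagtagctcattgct

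Several sterol synthesis genes were lower. Of 34 tested SREBP target genes, 10 were lower (29.4%, beside 6.32% of all genes), 1 was higher (Lss, 0.49, named after its value was seen, and not called with the further scaling) and 23 did not pass the test, with a median of -0.22. The further scaling gave 17 lower (beside 15.3% of all genes) and 0 higher (beside 15.7%), with a median of -0.42 beside 0.01. Hmgcs1, an early enzyme of the mevalonate pathway, had 977, 796 and 764 against 1604 to 2310 under DMSO (median 2020), a change of -1.22 ± 0.13 (adjusted p = 1.65e-14). Cyp51, a sterol demethylase gene, had 489, 523 and 415 against 999 to 1280 (median 1224), a change of -1.33 ± 0.12 (adjusted p = 1.52e-18). In both genes all BGT226 samples were below all DMSO samples. Msmo1, a sterol oxidase, changed by -1.32 ± 0.11 and Scd2, a fatty acid desaturase, by -1.38 ± 0.27. The genes of the SREBP factors themselves did not pass it, with -0.29 ± 0.18 for Srebf2 (adjusted p = 0.217, and -0.49 with adjusted p = 0.0343 after the further scaling) and 0.25 ± 0.18 for Srebf1 (adjusted p = 0.291). The sterol regulatory element TCACNCCAC (reverse GTGGNGTGA) occurred in 1.17% of promoters and in 1 of 25 SREBP target genes (4%), that of Hmgcs1 (chr13:119690101-119690350, plus strand), which is shown with the match in capitals. Of the other 24, 1 rose and 5 fell.
Hmgcs1: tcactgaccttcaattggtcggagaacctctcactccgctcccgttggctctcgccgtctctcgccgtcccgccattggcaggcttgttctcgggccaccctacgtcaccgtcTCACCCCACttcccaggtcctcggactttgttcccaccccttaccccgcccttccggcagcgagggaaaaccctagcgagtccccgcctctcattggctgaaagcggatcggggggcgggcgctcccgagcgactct

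The ATF4 list was divided. The largest rises were in the transcription factor genes Ddit3, Atf4 and Atf3 and in a transporter gene, while most members did not pass the test. Of 39 tested, 7 were higher (17.9%), 1 was lower (2.56%, Ddit4) and 31 did not pass. Both shares were below those of all genes, 24.1% and 6.32%. The list median was 0.12, and it changed sign to -0.08 under the further scaling, which gave 5 higher and 4 lower. Atf4 (chr15:80255184-80257545) had 9951, 9832 and 10468 under BGT226 and 1293 to 1753 under DMSO (median 1671), a rise of 2.67 ± 0.09 (adjusted p = 4.08e-53). Ddit3, which encodes the stress factor CHOP, had 1319, 731 and 566 against 22 to 76 (median 32), a rise of 4.56 ± 0.46. Atf3, a repressor of inflammatory genes, had 26584, 28999 and 26396 against 5695 to 8642 (median 6558), a rise of 2.03 ± 0.13. The treated samples were close to each other for Atf4 and Atf3, more spread for Ddit3, and above the DMSO range in all of them. Slc38a2, an amino acid transporter gene, rose by 2.17 ± 0.20. By contrast Asns, the asparagine synthetase gene, had 255, 313 and 464 against 217 to 442 (median 326), 0.14 ± 0.23 (adjusted p = 0.681). Aars, the alanyl-tRNA synthetase gene, had 778, 806 and 915 against 731 to 1048 (median 969.5), -0.14 ± 0.14 (adjusted p = 0.47), and after the further scaling -0.34 (adjusted p = 0.0307).

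The letters TTGCATCA (reverse TGATGCAA), a composite CEBP-ATF element, occurred in 0.679% of promoters and in 7 of 33 genes of the ATF4 list (21.2%), of which 2 were called higher, Atf3 and Nupr1, and 0 lower. The call of Nupr1 (1.31) was lost under the further scaling (1.11, adjusted p = 0.0835) and without BGT226 replicate 1 (0.87, adjusted p = 0.327). Of the 26 without it, 5 rose and 1 fell. The promoters of Atf3 (chr1:191183334-191183583, minus strand), which rose, and Aars (chr8:111033592-111033841, plus strand), which did not pass the test, are shown side by side with the element in capitals.
Atf3: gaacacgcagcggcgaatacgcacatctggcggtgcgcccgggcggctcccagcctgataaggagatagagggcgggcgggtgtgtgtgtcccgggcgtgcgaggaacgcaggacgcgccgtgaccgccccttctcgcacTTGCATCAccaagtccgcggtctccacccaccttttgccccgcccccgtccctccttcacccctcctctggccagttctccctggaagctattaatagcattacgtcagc
Aars: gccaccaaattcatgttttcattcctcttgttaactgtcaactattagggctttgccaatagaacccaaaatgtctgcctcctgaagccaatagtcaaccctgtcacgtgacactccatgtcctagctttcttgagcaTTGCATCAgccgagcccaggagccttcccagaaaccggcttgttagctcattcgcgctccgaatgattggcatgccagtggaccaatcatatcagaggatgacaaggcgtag

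Of 30 tested glycolysis and hypoxia genes, 6 were higher (20%) and 3 were lower (10%), shares close to the 24.1% and 6.32% of all genes, with a median of 0.09 that became -0.11 under the further scaling (5 and 5). Kdm3a, a hypoxia-induced histone demethylase gene, had 525, 606 and 686 against 65 to 152 under DMSO (median 137), a rise of 2.33 ± 0.20. Ndrg1, another hypoxia-induced gene, rose by 1.96 ± 0.29. The lower members were Hif1a, the oxygen-regulated factor, Slc2a1, the main glucose transporter gene, and Ldha (-0.41), the lactate dehydrogenase gene, the last named after its value was seen. Slc2a1 had 660, 738 and 783 against 920 to 1135 (median 983), -0.46 ± 0.12 (adjusted p = 0.00111). Hif1a had 787, 1201 and 878 against 1196 to 2501 (median 1484), -0.73 ± 0.21, with groups that overlapped by 1 sample, and the call was lost with DMSO set 1 alone (adjusted p = 0.0504) and without BGT226 replicate 1 (-0.60, adjusted p = 0.0599).

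**Figure D2:**
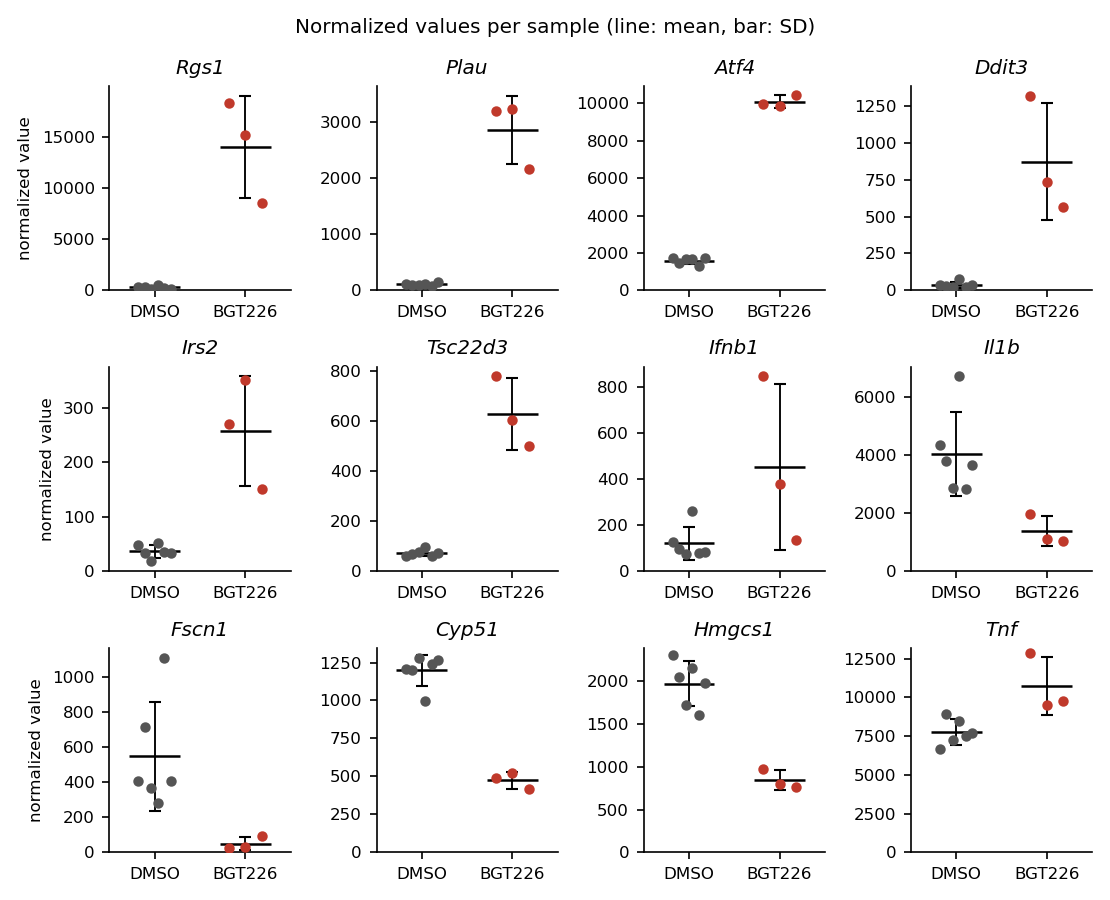
Each panel shows 1 gene, with its normalized value in the 6 DMSO and 3 BGT226 samples as points on a linear axis from 0, the mean as a line and the SD as a bar. BGT226 points lie above all DMSO points for Rgs1, Plau, Atf4, Ddit3, Irs2, Tsc22d3 and Tnf and below them for Il1b, Fscn1, Cyp51 and Hmgcs1, while Ifnb1 overlaps.

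The genes of CLK1, the kinase that set the concentration, and of its relatives were higher. Of 23 tested CLK kinases and SR splicing factors, 10 were higher (43.5%, beside 24.1% of all genes) and 2 lower (8.7%, beside 6.32%). The lower members were Srsf1 (-0.62) and Srrm2 (-0.48), named after their values were seen, and the list median was 0.30. Under the further scaling 5 were higher and 6 lower, beside 15.7% and 15.3% of all genes. The direction of the SR factors as a group thus depended on the scaling, whereas Clk1 and Clk4 rose under both scalings. Clk1 had 694, 811 and 400 under BGT226 and 67 to 259 under DMSO (median 137.5), a rise of 2.16 ± 0.35 (adjusted p = 1.63e-07). Clk4 (chr11:51263114-51281770) had 589, 707 and 471 against 53 to 109 (median 102), a rise of 2.64 ± 0.20 (adjusted p = 8.3e-23). Dyrk1b, a kinase gene of a related family, had 208, 203 and 274 against 28 to 94 (median 40.5), a rise of 2.28 ± 0.27. The groups were separate in these genes.

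Of 23 tested genes known for detained introns, 11 were higher (47.8%, beside 24.1% of all genes), 11 did not pass the test and 1 was lower (Ddx5, -0.31, named after its value was seen), with a median of 0.71, and the further scaling gave 10 and 1 with a median of 0.52. The values are counts on exons, so intron retention itself was not measured. Ccnl1, which encodes cyclin L1 of the splicing machinery, had 1670, 1769 and 724 against 78 to 416 under DMSO (median 317), a rise of 2.51 ± 0.34. Nktr, which encodes a cyclophilin with SR-like repeats, had 512, 607 and 694 against 123 to 269 (median 152), a rise of 1.87 ± 0.20. Luc7l, a U1 snRNP-associated factor, had 454, 595 and 686 against 143 to 314 (median 181.5), a rise of 1.59 ± 0.25. No BGT226 value of these genes was inside the DMSO range.

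Small nucleolar RNA host genes were among the largest rises in the table, and they were gathered into a group only after their values were seen. Such genes carry snoRNAs in their introns, and their spliced transcripts are short-lived and degraded when translated. Of the 18 genes named Snhg with a number, or Gas5, 12 were tested. Of these, 10 rose (83.3%, beside 24.1% of all genes) and 0 fell (beside 6.32%), with a median of 2.69. Snhg3 (0.23) and Snhg20 (-0.63) did not pass the test. The further scaling gave 10 higher and 1 lower, Snhg20 (-0.82, adjusted p = 0.0432). These counts are a description that cannot serve as a test because of how the genes were chosen. Snhg5 had 375, 298 and 293 against 11 to 20 under DMSO (median 16.5), a rise of 4.24 ± 0.35. Snhg17 had 214, 231 and 217 against 7 to 23 (median 14), a rise of 4.03 ± 0.37. Every treated sample of both lay far above the highest DMSO sample. Snhg12, Snhg1, Snhg16 and Snhg15 rose by 3.75 ± 0.44, 3.56 ± 0.40, 3.40 ± 0.29 and 3.08 ± 0.29. Gas5 had 458, 338 and 353 against 50 to 173 (median 64), a rise of 2.30 ± 0.39. The cytosolic ribosomal protein genes share with these hosts a 5′ terminal pyrimidine tract through which mTOR controls translation. Of 84 tested, 29 were higher (34.5%, beside 24.1% of all genes) and 0 lower (beside 6.32%), with a median of 0.38. After the further scaling, however, 1 was higher and 3 were lower.

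**Figure D3:**
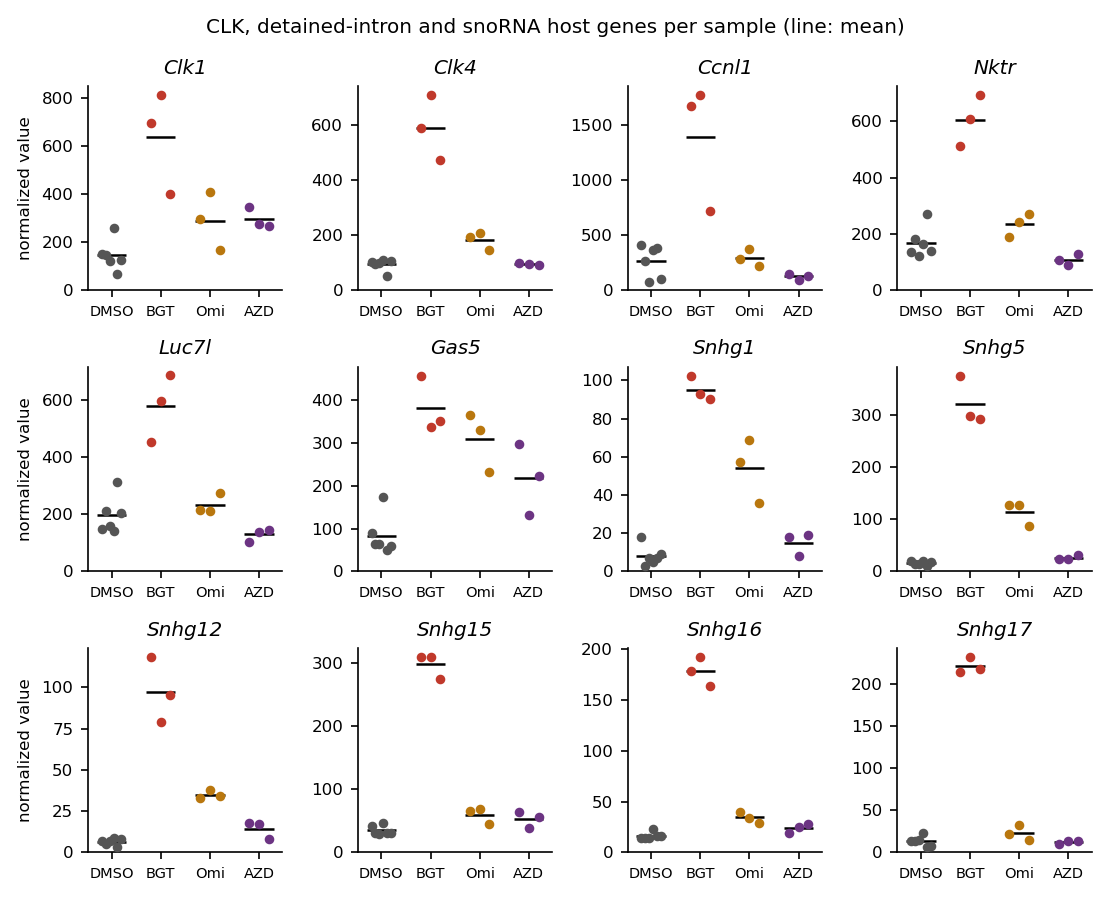
Each panel shows 1 gene in the 6 DMSO, 3 BGT226, 3 Omipalisib (Omi) and 3 AZD2014 (AZD) samples, with the normalized value on a linear axis from 0 and a line at the mean. For Snhg17 the BGT226 samples stand at 214 to 231, with the Omipalisib samples at 15 to 33 and the AZD2014 samples at 10 to 14.

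The LPS response was changed in parts. Of 28 tested genes of the path from TLR4 to Ifnb1, 10 were higher (35.7%, beside 24.1% of all genes) and 1 lower (3.57%, beside 6.32%). The lower one was Myd88 (-0.66), the adaptor of the early TLR4 signal, named after its value was seen. The list median was 0.35, and the further scaling gave 7 higher and 4 lower. Tab1, an activator of the kinase TAK1, had 405, 338 and 330 against 87 to 114 under DMSO (median 100), a rise of 1.82 ± 0.20. Traf3, a ubiquitin ligase of the interferon branch, had 601, 679 and 683 against 145 to 317 (median 278.5), a rise of 1.35 ± 0.19. Ticam2, the adaptor that brings TRIF to TLR4, rose by 1.10 ± 0.15, with 14.5% of its exon bases shared with Tmed7 on the same strand. Treated and DMSO samples were separate for all of these.

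Ifnb1, the interferon-beta gene (chr4:88522025-88522794), had 845, 378 and 137 under BGT226 and 75 to 262 under DMSO (median 92.5). BGT226 replicate 3 lay inside the DMSO range, which also held 1 high sample, at 262. The log2 fold change was 1.68 ± 0.40 (adjusted p = 0.000401), and the call was lost when BGT226 replicate 1 was left out (1.05, adjusted p = 0.0815). Genes induced by interferon mostly did not pass the test. Of 72, 5 were higher (6.94%), 1 was lower (1.39%) and 66 were not called. Both shares were below those of all genes, 24.1% and 6.32%. The list median of 0.17 became -0.02 with the further scaling. Mx2, an antiviral GTPase gene, had 7238, 3042 and 4506 against 1031 to 2847 (median 1461), a rise of 1.61 ± 0.32. Oas2, an antiviral sensor gene, had 1590, 1144 and 1262 against 273 to 890 (median 577), a rise of 1.27 ± 0.24. The treated samples were above the DMSO range in both genes. Rsad2 and Irf1 were higher by 0.81 ± 0.29 and 0.58 ± 0.19, and both lost the call under the further scaling (adjusted p = 0.103 and 0.142) and without BGT226 replicate 1 (0.137 and 0.058) or replicate 3 (0.093 and 0.0971), Rsad2 also without DMSO set 1 replicate 3 (0.0697) or set 2 replicate 3 (0.0567). The chemokine gene Cxcl9 had 179, 45 and 98 against 195 to 759 (median 456), -2.10 ± 0.69 (adjusted p = 0.013), and lost the call without BGT226 replicate 2 (-1.59, adjusted p = 0.137). Cxcl10 had 89034, 43148 and 61441 against 56043 to 112277 (median 61486), -0.16 ± 0.30 (adjusted p = 0.717), and Ifit1 had 0.22 ± 0.41 (adjusted p = 0.725).

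Cytokine genes moved in both directions. Of 36 tested, 12 were higher (33.3%, beside 24.1% of all genes), 4 were lower (11.1%, beside 6.32%) and 20 did not pass the test. The list median was 0.39 (0.19 with the further scaling, 10 and 5). Ccl2, which attracts monocytes, had 21641, 22515 and 17691 against 6977 to 8431 under DMSO (median 7788), a rise of 1.42 ± 0.12 (adjusted p = 1.35e-19). Osm, which encodes oncostatin M, had 192, 171 and 131 against 22 to 61 (median 34), a rise of 2.18 ± 0.32. The interleukin-1 genes went the other way. Il1b had 1994, 1128 and 1052 against 2842 to 6751 (median 3732), -1.54 ± 0.41 (adjusted p = 0.00178), with all treated samples below the DMSO range. Il1a had 264, 168 and 102 against 237 to 627 (median 350.5), -1.09 ± 0.41 (adjusted p = 0.0311), and Il27, a cytokine subunit gene, had -0.92 ± 0.37 (adjusted p = 0.0452). Both overlapped with DMSO, and their calls were lost under 7 and 10 alternatives, among them leaving out BGT226 replicate 2 (adjusted p = 0.075 and 0.274) or DMSO set 2 replicate 1 (adjusted p = 0.0771 and 0.0568). Tnf had 12878, 9537 and 9767 against 6668 to 8932 (median 7597), and although the groups did not overlap it did not pass the test (0.46 ± 0.31, adjusted p = 0.26). The interleukin genes Il10 (0.92 ± 0.44, adjusted p = 0.0967), Il12b (0.23 ± 0.29, adjusted p = 0.585) and Il6 (-0.29 ± 0.43, adjusted p = 0.647) did not pass it either, with BGT226 values of 2854, 1984 and 1256 for Il10 against 639 to 2089. In a limma fit of only the groups compared, Tnf passed (0.46, adjusted p = 0.0377).

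**Figure D4:**
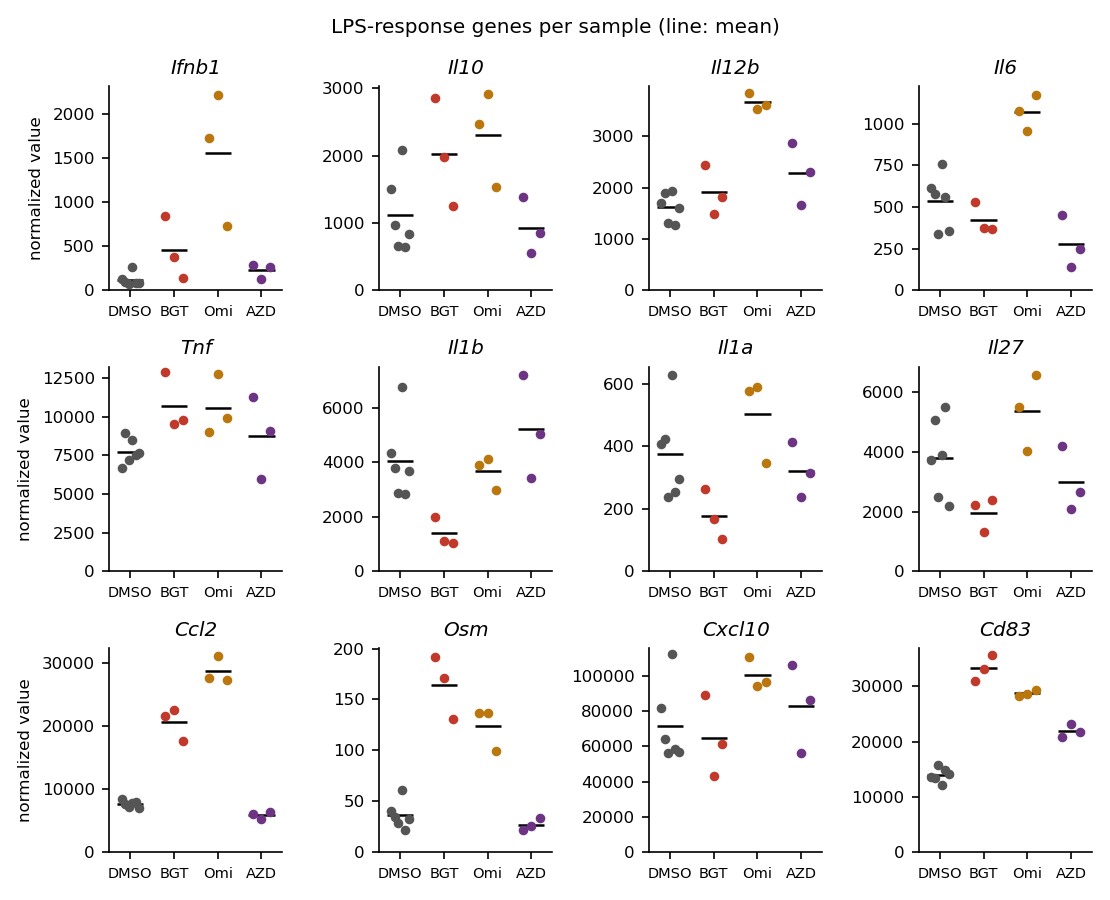
Each panel shows 1 gene of the LPS response in the 6 DMSO, 3 BGT226, 3 Omipalisib (Omi) and 3 AZD2014 (AZD) samples, with the normalized value on a linear axis from 0 and a line at the mean. Ccl2 is at 17691 to 22515 under BGT226 and 6977 to 8431 under DMSO, Il1b is at 1052 to 1994 and 2842 to 6751, and the Ifnb1 values of Omipalisib, 726 to 2207, reach above those of BGT226.

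Among NF-kB subunits, inhibitors and effectors 10 of 31 were higher (32.3%, beside 24.1% of all genes) and 5 lower (16.1%, beside 6.32%), with a median of 0.31. The lower members were Bcl3, Nfkb2, Nfkbiz, Birc2 and Sod2 (from -0.69 to -0.32), named after their values were seen. With the further scaling 3 were higher and 5 lower, beside 15.7% and 15.3% of all genes. Here too the balance of directions depended on the scaling. Cd83, a surface protein of activated antigen-presenting cells, had 30878, 33167 and 35753 against 12239 to 15779 under DMSO (median 13931), a rise of 1.25 ± 0.11. Cd86, a T cell costimulator, had 1116, 650 and 620 against 189 to 559 (median 276), a rise of 1.38 ± 0.33, and Traf1, a signaling adaptor, rose by 1.11 ± 0.20. The treated samples of all of these lay above the DMSO range. The inhibitor gene Nfkbia had 34844, 33534 and 39939 against 32236 to 41142 (median 38062), -0.03 ± 0.09 (adjusted p = 0.812).

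Immediate-early genes and feedback regulators of MAP kinases had a median of 0.77. Of 36 tested, 16 were higher (44.4%, beside 24.1% of all genes) and 4 lower (11.1%, beside 6.32%), and 13 and 4 under the further scaling. Fosb, a subunit of AP-1, had 137, 306 and 89 against 17 to 40 under DMSO (median 22.5), a rise of 2.64 ± 0.44. Dusp4, a phosphatase of ERK, had 1404, 2114 and 1593 against 235 to 452 (median 340.5), a rise of 2.28 ± 0.40. The factor genes Klf4 and Nr4a2 rose by 2.04 ± 0.44 and 2.03 ± 0.39. Dusp1, another MAP kinase phosphatase gene, had 12514, 14426 and 8035 against 7541 to 27409 (median 21024), with overlapping groups (-0.56 ± 0.40, adjusted p = 0.297). Of 33 tested G-protein-coupled receptor genes of macrophages, 7 were higher (21.2%, near the 24.1% of all genes) and 5 lower (15.2%, beside 6.32%). Their median of 0.05 became -0.15 with the further scaling (6 and 8). After Cxcr4, the largest rises were in Ccrl2, an atypical chemokine receptor gene, with 17190, 9310 and 9345 against 2294 to 6931 (median 3070), and Ptafr, the gene of the receptor for platelet-activating factor, with 10200, 5909 and 5141 against 1261 to 3940 (median 1874). Their log2 fold changes were 1.74 ± 0.38 and 1.69 ± 0.34, and their groups did not overlap.

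Cell death and growth arrest genes gave a mixed picture. Of 19 tested p53 target genes, 7 were higher (36.8%, beside 24.1% of all genes) and 5 were lower (26.3%, beside 6.32%). The lower members were Aen, Tigar, Zmat3, Ccng1 and Ei24 (from -0.97 to -0.72), named after their values were seen. The list median of 0.11 became -0.09 with the further scaling (6 and 6). Mdm2, the ubiquitin ligase of p53, had 6427, 7104 and 6952 against 1721 to 2027 under DMSO (median 1873), a rise of 1.87 ± 0.14 (adjusted p = 4.14e-23). Plk2, a stress-induced kinase gene, had 4121, 4131 and 4489 against 1004 to 1394 (median 1072), a rise of 1.94 ± 0.13. Both genes were tight within each group and separate between groups. In the BCL2 family, 6 of 16 were higher (37.5%, beside 24.1% of all genes) and 1 was lower (6.25%, near the 6.32% of all genes). The lower one was Bik (-0.78), named after its value was seen. The list median was 0.33, with 4 higher and 1 lower under the further scaling. The members that rose oppose each other in their known roles. Pmaip1 (2.58 ± 0.28) and Bbc3 (1.28 ± 0.28) encode death-promoting BH3-only proteins, and Mcl1, with 2120, 1900 and 1381 against 572 to 1079 (median 754, 1.23 ± 0.19), encodes a survival protein.

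Of 44 cell cycle genes, 6 were higher (13.6%, below the 24.1% of all genes) and 3 were lower (6.82%, near 6.32%). Rrm2, the third of the lower genes, at -0.77 was named after its value was seen. The list median was 0.10 and became -0.10 under the further scaling (1 and 7). Ccnd2, a D-type cyclin gene, had 237, 238 and 402 against 681 to 1197 under DMSO (median 930), -1.70 ± 0.25, and Ccnd3 had 280, 373 and 353 against 543 to 1157 (median 848), -1.24 ± 0.21. All treated samples of both were below the DMSO range. Cdt1, a licensing factor gene of DNA replication, had 1103, 1522 and 1635 against 304 to 527 (median 398.5), a rise of 1.83 ± 0.34. Ccnd1 had 706, 1330 and 1318 against 808 to 1926 (median 1536), -0.35 ± 0.40 (adjusted p = 0.539), and Myc had 0.50 ± 0.22 (adjusted p = 0.0823). Myc passed the test when BGT226 replicate 1 was left out (0.69, adjusted p = 0.0423). Of 50 ribosome biogenesis genes, 5 were higher (10%, below the 24.1% of all genes) and 6 lower (12%, beside 6.32%). Their median was -0.08 (-0.28, 5 and 10, under the further scaling). Taf1d, a factor of RNA polymerase I that also hosts snoRNAs, had 403, 370 and 373 against 57 to 135 (median 81), a rise of 2.21 ± 0.22, and the nucleolar GTPase gene Gnl3 rose by 1.17 ± 0.25. Grwd1 and Ppan, ribosome assembly factor genes, had -0.96 ± 0.28 and -0.94 ± 0.30 with overlapping groups, and lost their calls without BGT226 replicate 1 (-0.71 and -0.66, adjusted p = 0.108 and 0.168).

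Of 84 nuclear-encoded genes of the respiratory chain, 1 was higher (1.19%, beside 24.1% of all genes) and 7 lower (8.33%, beside 6.32%). Their median was -0.09. Under the further scaling 0 were higher and 37 lower, beside 15.7% and 15.3% of all genes. Their count of falls was the one that the scaling changed most among the lists. The 17 tested mitochondrially encoded genes had a median of 0.65 and 0 called in either direction by limma, under both scalings.

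**Figure D5:**
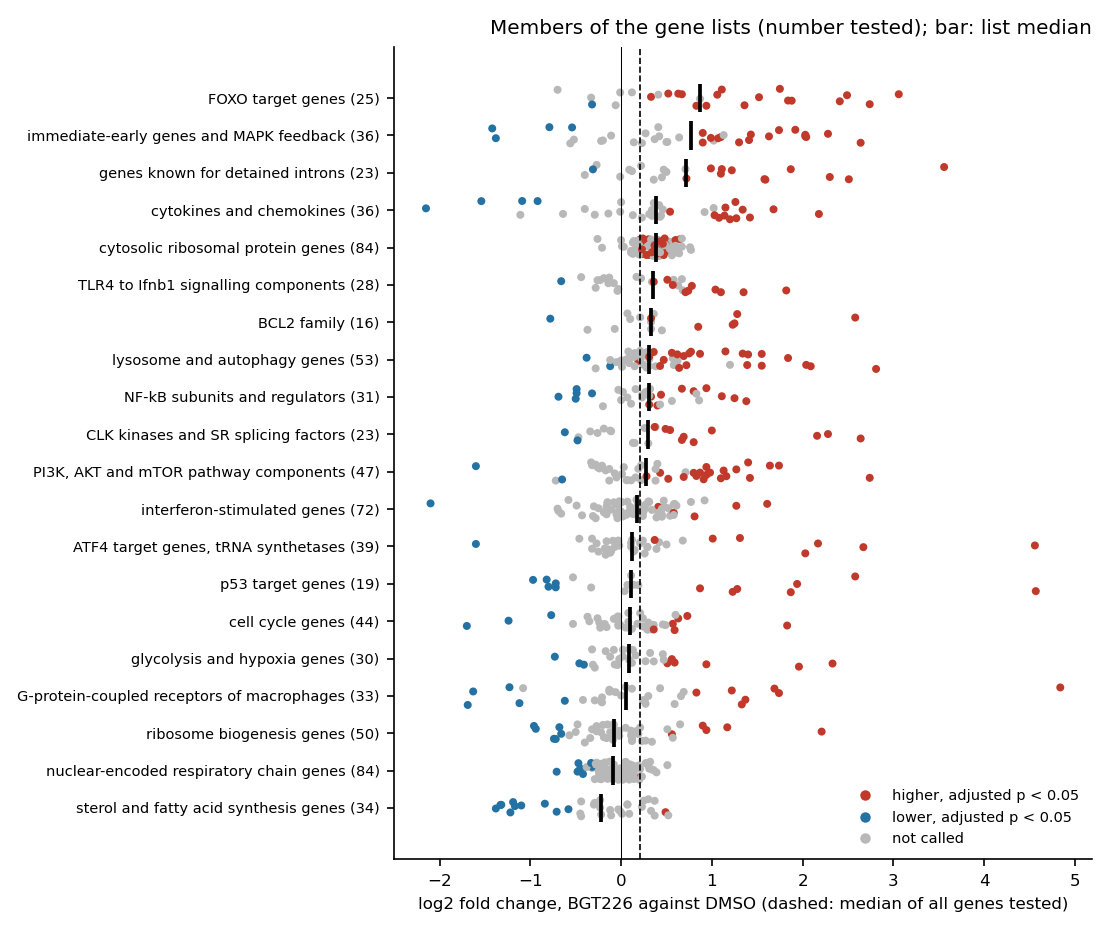
Each row is 1 of the pathway lists, or the ribosomal protein or respiratory chain genes, with the number of genes tested, each point is a member at its log2 fold change under BGT226 against DMSO, colored by whether it was called higher, called lower or not called, and the bar is the list median. The FOXO target median of 0.87 and the immediate-early median of 0.77 lie farthest above the median of all genes at 0.21, and the sterol synthesis median of -0.22 lies farthest below it, among the lists plotted.

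Markers of other cells were scarce, and in these bulk samples fewer cells of a type and less RNA per cell cannot be told apart. Neutrophil and granulocyte precursor markers summed to 285 to 666 under BGT226 and 299 to 1009 under DMSO. Of 7 tested, 2 were lower (28.6%, beside 6.32% of all genes) and 0 higher (beside 24.1%). The lower ones were Mpo, with 5, 2 and 1 against 6 to 21 (median 14), and Elane, with 5, 5 and 4 against 9 to 32 (median 21.5). Of 3 tested fibroblast markers 1 was lower (33.3%, beside 6.32%), Pdgfrb, with 4, 2 and 14 against 9 to 33 (median 20.5). The fibroblast list summed to 30 to 41 against 28 to 180, with Lum at 0 in all 9 samples. T cell markers summed to 12 to 18 against 2 to 21 and B cell markers to 2 to 22 against 2 to 21, with Cd79a and Pax5 at 0 throughout. Erythroid markers summed to 0 against 0 to 2, dendritic cell markers to 91 to 100 against 80 to 110 and mast cell markers to 1 to 6 against 0 to 5. Of the T cell, erythroid and mast cell markers 0 reached the cutoff for testing, so these lists could give no call. Of the 1 B cell marker and 2 dendritic cell markers tested, 0 were called. For each list of other cells the range of sums under BGT226 overlapped that under DMSO, and the part of any other cell type in the results was not tested.

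The 3 BGT226 samples were not evenly ordered among the called genes. Among the 3060 genes that rose, replicate 3 was the lowest of the treated samples in 46.9% and replicate 1 the highest in 42.0%. Among the 803 that fell, replicate 1 was the lowest in 53.5% and replicate 2 the highest in 48.2%. Replicate 3 also had the smallest mitochondrial share of the treated samples. Replicate 1 had the largest total (12051368), and its deviations correlated at 0.683 with those of the DMSO samples numbered 1. The part of each of these in the order was not tested, and the order over all genes was not taken.

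Against Omipalisib, the other dual inhibitor, the differences were fewer and mostly in 1 direction. In the direct contrast of the 2 treatments as used, 606 genes differed (4.77%), with 548 higher under BGT226 (4.31%) and 58 lower (0.456%), and 357 (2.81%) and 119 (0.936%) with the further scaling. This count rested on single samples, since 297 genes differed without BGT226 replicate 2, 384 without Omipalisib replicate 1 and 316 without Omipalisib replicate 3, and 1068 differed in a fit with the replicate number as a block. Against AZD2014, 3770 genes differed (29.7%), with 3389 higher (26.7%) and 381 lower (3%), and 2328 (18.3%) and 1577 (12.4%) with the further scaling. Compound and concentration both differed in these 2 contrasts and cannot be told apart. The comparisons of each compound with DMSO share the 6 DMSO samples, and they gave 2227 genes higher (17.5%) and 1037 lower (8.16%) for Omipalisib and 771 higher (6.06%) and 1719 lower (13.5%) for AZD2014.

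Some splicing-related transcripts and some snoRNA hosts were among the largest differences between the dual inhibitors. Of 23 genes with detained introns, 7 were higher under BGT226 than under Omipalisib and 0 lower (background 4.31%), and 13 were higher than under AZD2014 (26.7%). Of 23 CLK and SR genes, 4 were higher than under Omipalisib and 11 higher than under AZD2014, with 0 lower in both. Clk4 had 192, 206 and 146 under Omipalisib and 101, 96 and 93 under AZD2014, below each BGT226 value, with log2 differences of 1.69 ± 0.23 (adjusted p = 2.37e-08) and 2.58 ± 0.23 (adjusted p = 1.08e-17). Clk1 had 296, 408 and 166 under Omipalisib, a difference of 1.16 ± 0.40 that did not pass the test (adjusted p = 0.0786), and 346, 274 and 268 under AZD2014 (1.05 ± 0.40, adjusted p = 0.0378), a call that was lost under the further scaling (0.82, adjusted p = 0.094). Ccnl1 differed by 2.15 ± 0.39 and 3.35 ± 0.39, with 287, 377 and 224 under Omipalisib and 153, 98 and 133 under AZD2014, all below the lowest BGT226 value of 724. Of the 12 snoRNA hosts tested, 4 were higher than under Omipalisib (background 4.31%) and 0 lower, with a median of 0.58, and the rest were not called. Snhg17 had 22, 33 and 15 under Omipalisib, a difference of 3.25 ± 0.43 (adjusted p = 7.41e-09), and Snhg16 and Snhg15 differed by 2.35 ± 0.34 and 2.32 ± 0.33. Gas5, among the hosts not called, had 365, 332 and 233 under Omipalisib, a difference of 0.32 ± 0.46 (95% interval -0.58 to 1.21, adjusted p = 0.839). Ptbp2, which encodes a splicing regulator, had 233, 305 and 248 under BGT226, 39, 48 and 49 under Omipalisib and 17 to 34 under DMSO, so that it was separate from both (2.50 ± 0.30 against Omipalisib). The noncoding RNA gene Pvt1 and the GTPase regulator gene Arhgap33 were also among the largest differences, at 2.87 ± 0.44 and 2.56 ± 0.38.

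Genes that were lower under BGT226 than under Omipalisib included cytokines. Of 36 cytokine genes 4 were lower (background 0.456%) and 1 was higher. Ifnb1 had 1727, 2207 and 726 under Omipalisib, a difference of -1.99 ± 0.46 (adjusted p = 0.00233), with 1 BGT226 sample, at 845, inside that range. Ccl2 had 27618, 31115 and 27303 under Omipalisib, all above BGT226, a difference of -0.48 ± 0.14 (adjusted p = 0.0233). Il1a and Il27 differed by -1.56 ± 0.47 and -1.47 ± 0.42. Il1b had 3899, 4114 and 2977 under Omipalisib, also without overlap, but did not pass the test (-1.44 ± 0.47, adjusted p = 0.0558). Adamts4, Rnd1, a small GTPase gene, and Rn7sk, the gene of the 7SK RNA that restrains transcription elongation, differed by -1.82 ± 0.41, -1.64 ± 0.39 and -1.89 ± 0.37. For Rn7sk, BGT226 had 218, 93 and 122, Omipalisib 691, 604 and 307, and DMSO 39 to 85. The libraries were primed with oligo(dT) on polyA RNA, and how far these counts follow the level of 7SK RNA was not tested. The D-type cyclin gene Ccnd2 had 537, 567 and 885 under Omipalisib, all above BGT226 (-1.19 ± 0.28, adjusted p = 0.00343).

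Of 34 sterol synthesis genes, 9 were higher under BGT226 than under Omipalisib (background 4.31%) and 0 were lower, and most did not pass the test. Against AZD2014 the list was split, with 5 higher (background 26.7%), 5 lower (3%) and a median of -0.11. Cyp51 had 259, 244 and 242 under Omipalisib and 636, 807 and 649 under AZD2014, with the BGT226 values of 489, 523 and 415 between them, and the log2 differences were 0.93 ± 0.14 (adjusted p = 2.03e-07) and -0.55 ± 0.14 (adjusted p = 0.000737). Hmgcs1 had 507, 501 and 461 under Omipalisib and 1265, 1125 and 1156 under AZD2014, and BGT226 was again between them (0.78 ± 0.15 and -0.49 ± 0.15). Msmo1 differed from Omipalisib by 0.86 ± 0.13. In each of these named genes the compounds were ordered with Omipalisib lowest, then BGT226, then AZD2014, with separate samples throughout. The list as a whole did not share this order, given its split against AZD2014.

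Of 25 FOXO targets 2 were higher than under Omipalisib and 0 lower, and of 53 lysosome and autophagy genes 1 was higher and 0 lower, beside 4.31% and 0.456% of all genes. Against AZD2014, 7 and 24 were higher and 1 and 0 lower, beside 26.7% and 3% of all genes, so the FOXO count against AZD2014 was near the background. Hbp1 had 2682, 3038 and 2015 under Omipalisib, with a difference of 0.00 ± 0.37 (adjusted p = 0.999), and 2088, 1317 and 1659 under AZD2014 (0.62 ± 0.37, adjusted p = 0.221). Tsc22d3 had 347, 416 and 264 under Omipalisib, below each BGT226 value (0.87 ± 0.24, adjusted p = 0.017). Irs2 had 176, 263 and 121 under Omipalisib (0.45 ± 0.44, adjusted p = 0.725) and 87, 103 and 73 under AZD2014 (1.48 ± 0.44, adjusted p = 0.00595). These p-values do not show that the dual inhibitors act alike, since the 95% interval of the difference (normal, not adjusted) ran from -0.73 to 0.73 for Hbp1 and from -0.42 to 1.32 for Irs2.

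Atf4 separated the 3 compounds. It had 6009, 6011 and 6143 under Omipalisib and 986, 1126 and 1235 under AZD2014, and BGT226 was higher by 0.74 ± 0.11 (adjusted p = 1.56e-07) and 3.18 ± 0.11 (adjusted p = 1.21e-54). The AZD2014 values all lay below the DMSO range of 1293 to 1753, and the Omipalisib values above it. Ddit3 had 289, 383 and 176 under Omipalisib and 60, 37 and 35 under AZD2014, with differences of 1.60 ± 0.53 (adjusted p = 0.062) and 4.23 ± 0.53 (adjusted p = 7.58e-11). Gdf15 and Rhov had 28, 61 and 42 and 3, 5 and 2 under AZD2014, where they were close to their DMSO levels, and BGT226 exceeded them by 4.91 ± 0.52 and 6.28 ± 0.70. Rgs1 had 7178, 10004 and 4641 under Omipalisib, of which 1 was above the lowest BGT226 sample (0.94 ± 0.50, adjusted p = 0.363), and 1208, 476 and 686 under AZD2014 (4.18 ± 0.50). The largest differences in the other direction from AZD2014 included Ccl24, Fscn1, Rgs16 and Cx3cl1, at -3.14 ± 0.49, -3.06 ± 0.48, -2.36 ± 0.51 and -2.16 ± 0.41. Fscn1 had 321, 263 and 565 under AZD2014, against 26, 31 and 95 under BGT226.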

How the data were processed

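RNA was measured by SMART-seq2, an unstranded method that primes polyA RNA with oligo(dT), in 180 samples, which the study describes as independent biological replicates. Per the labels and the study's methods, the authors aligned reads to mm10 with TopHat2 2.1.1, removed blacklisted reads with bedtools 2.29.2, counted reads on RefSeq genes with R packages, scaled each sample on invariant genes and tested with DESeq2 in R 3.6.2. The deposited normalized values are whole numbers after scaling and rounding, were handled as a score without a unit, and do not give the original read depth. All columns were matched to samples by name, and 0 were left over. Totals lay between 9477340 and 12273349.

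From these values log2(value + 1) was fitted with limma 3.58.1 (R 4.3.3, moderated test with trend) in 1 model of 59 groups and 180 samples, for genes with a mean of at least 10. P-values are two-sided and adjusted by Benjamini-Hochberg over the 12714 genes of each contrast. Fold changes on this scale understate low genes. An SE is that of the log2 difference. The script was tested on simulated data. Alternatives were another pseudocount, filter, scaling, trend, sample set, DMSO set, replicate block, mitochondrial covariate and leaving out samples. Because SMART-seq2 keeps no strand, exon overlaps were taken from GENCODE, and 22 of 145 named genes found there overlap another tested gene, 3 by at least 20% of their exons.

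Genes named are those with the largest changes (up to 12 each way, with groups that do not overlap and a mean of at least 50), up to 5 called and 2 uncalled members of each list, 20 genes fixed by name, and the 6 largest differences each way in each direct contrast. Not all of them are printed, and some items are not reported here. The samples, lists and genes were chosen with earlier results of these data known. Figures were drawn with matplotlib 3.10.9 (Python 3.11.15, pandas 2.3.3).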

Additional observations from a re-analysis of the deposited data

Results flagged for a closer look

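Of 146 named genes, 11 had 1 of the 6 DMSO samples apart from the rest, with a gap to the next sample above 0.625 of the group's range, where chance alone flags about 1 in 20 groups. In DMSO set 2 replicate 1 the normalized value was 76 for Ddit3, 262 for Ifnb1, 173 for Gas5, 23 for Snhg16 and 1394 for Plk2, each the highest of the 6, and 999 for Cyp51, the lowest. In DMSO set 2 replicate 2 it was 53 for Clk4, the lowest, and 2501 for Hif1a and 15380 for Nfkbiz, the highest. In DMSO set 1 replicate 3 it was 145 for Traf3 and 5795 for Bcl2l11, the lowest. Without DMSO set 2 replicate 1 the number of genes called against DMSO was 4248 in place of 3863.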

How the results depend on the processing

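Of the named genes called against DMSO, 1 changed direction under an alternative, Csf1r, at -0.04 with the further scaling, and 6 list medians near 0 changed sign with the further scaling, as given with the lists. Fitting only the groups compared gave 2387 genes against DMSO (2008 higher, 379 lower), and a size of at least 1 on the log2 scale in addition left 1350 against DMSO, 236 against Omipalisib and 1861 against AZD2014. Without a filter 950 genes differed from Omipalisib, where 606 were called. The counts with 1 sample left out were 2753 to 4248 against DMSO, 297 to 517 against Omipalisib and 2901 to 3458 against AZD2014. For Omipalisib, leaving out BGT226 replicate 2 (297), Omipalisib replicate 1 (384) or Omipalisib replicate 3 (316) moved the count by over 1.5 times. DMSO set 1 alone gave 3397 genes and DMSO set 2 alone 2875. With the further scaling the share of rises was 50.7% in place of 79.2% against DMSO, 75% in place of 90.4% against Omipalisib and 59.6% in place of 89.9% against AZD2014.

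The replicate numbers of the labels were tested for pairing. The correlations of the deviations of BGT226 and DMSO samples with the same number were 0.683, 0.0604 and 0.24. BGT226 replicates 2 and 3 correlated best with another number than their own. Because replicate 2 was near 0, the fit behind the results above did not use the numbers. Between the 2 DMSO sets the same-number correlations were 0.514, 0.237 and 0.322 and every other was below 0. DMSO samples of the same number thus shared part of their deviations, which that fit leaves out, and what the number marks was not tested. A replicate block gave 4956 genes against DMSO, 4692 against AZD2014 and 1068 against Omipalisib (936 higher, 132 lower), and adding each sample's mitochondrial share to that replicate block gave, in the same order, 4981, 4979 and 1208. With the replicate block Il10 passed the test (0.92, adjusted p = 0.0112), and with the mitochondrial share as well Srebf1 and Sqstm1 did (0.30 and 0.29, adjusted p = 0.0141 and 0.0206).

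Of 129 named genes called against DMSO, 95 kept their call under every alternative but the size threshold. Of the other 34, 6 lost it in the same direction with the further scaling, Bcl2l11, Irf1, Lss, Nupr1, Pik3ip1 and Rsad2 (adjusted p = 0.0835 to 0.317). Without BGT226 replicate 1 the calls of 21 were lost, Bik, Csf1r, Ctsd, Ddx5, Eif4ebp2, Grwd1, Hif1a, Ifnb1, Il27, Irf1, Ldha, Nupr1, Pik3ip1, Ppan, Rn7sk, Rrm2, Rsad2, Sod2, Spi1, Srsf1 and Tigar (0.058 to 0.327). Without replicate 2 those of 10 were lost, Bcl3, Ctsd, Cxcl9, Il1a, Il27, Nfkb2, Pik3ip1, Sod2, Spi1 and Steap4 (0.0707 to 0.274), and without replicate 3 those of 14, Birc2, Csf1r, Ctsd, Ddit4, Ddx5, Ei24, Eif4ebp2, Il1a, Irf1, Lss, Pik3ip1, Rsad2, Srsf1 and Zmat3 (0.0605 to 0.419). Leaving out 1 DMSO sample ended the calls of 2 to 8 genes, all within those named for the BGT226 samples (0.051 to 0.121), and Nfkbiz and Srrm2 lost theirs only in fits of the compared groups or, for Srrm2, DMSO set 1 alone. The cause was not tested. Counting error weighs most on genes close to the cutoff of 10, and the read depth behind them is not known from the deposited values, so small differences in low genes were not detectable.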
